A study of Mustela putorius furo and Mus musculus with 4 samples.

Results

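Actin, myosin and partner genes, called contractile genes here for short, were compared between cultured ferret and mouse astrocytes. They were taken by symbol: conventional myosin heavy chains (Myh genes), myosin light chains (Myl genes), unconventional myosins (Myo genes), actins, tropomyosins, alpha-actinins, filamins, calponins and transgelins. The rule used names only and no measured value. It found 54 genes among the 13373 gene symbols that the ferret and mouse values share, and each of the 54 had a single value per library.

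The RNA came from primary astrocytes of the cerebral cortex of ferrets (Mustela putorius furo) at postnatal day 1 and of ICR mice at postnatal day 1 to 3, with 2 libraries per species. Cells were expanded as mixed glia for 14 days in serum, shaken to remove loosely attached cells, replated and then moved to a serum-free medium that held heparin-binding EGF-like growth factor before RNA was taken. No group carried a transgene or a drug treatment. Each mouse flask pooled several pups, whereas the cells of a ferret pup were spread over several flasks, and whether the duplicate libraries came from separate cultures is not given in the sources used here.

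The values are FPKM, sequenced fragments normalised to the exon length of a gene and to all mapped fragments of a library. FPKM carry no read counts, so no library depth or counting interval is given. The limma test used log2(FPKM + 1), a scale that understates the change of low genes, and took in the 10204 shared symbols whose mean reached 1 FPKM in either species. A gene was called when its Benjamini-Hochberg adjusted p was under 0.05 and its log2 difference was above 1 in size. Across all tested genes the median log2 difference, ferret minus mouse, was -0.35 with FPKM as deposited, -0.01 after the libraries were rescaled to the mean of their 4 sums over the shared symbols, and 0.05 after quantile normalization. The adjusted p-values set the species difference against the spread between duplicate libraries within a species, which may be technical. Species, gene annotation and culture cannot be told apart. As for identity, 7 of 11 astrocyte markers were called lower in ferret (63.6%, against 30.1% of all tested genes), 1 higher (9.09%, against 13.1%) and 3 not. Their median log2 difference was -1.34. After rescaling 5 were called lower and 2 higher, against 21.7% and 19.1% of all genes. After quantile normalization the counts were 4 and 2, against 20.5% and 20.3%. Gfap, an intermediate filament protein of astrocytes, stood at 1481 and 1522 FPKM in ferret and 1429 and 1546 FPKM in mouse libraries, while Slc1a2, a glutamate transporter of astrocytes, was at 0.133 and 0.178 FPKM in ferret against 47.1 and 51.8 FPKM in mouse libraries. Slc1a2 had the lowest difference of the list, -5.45, and S100b, a calcium-binding protein, the highest, 2.01.

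Myosin II is the motor of cell contraction. Its heavy chains form short bipolar filaments that pull on actin, the essential and regulatory light chains stabilise and switch the motor, tropomyosins and calponins lie along the actin filament, and alpha-actinins and filamins tie filaments together. Unconventional myosins do not form such filaments and instead carry membranes and cargo or anchor them to actin. In cultured astrocytes this system builds stress fibres and sets cell shape and spreading.

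Several members are near copies of each other, which bears on how reads could be assigned to them, so the first 60 coding bases of the closest pairs are shown as read from the mouse GENCODE M21 transcripts (GRCm38). Capitals mark the bases that differ within a pair. The cytoplasmic actins lie on chr5:142905627-142905686 (Actb) and chr11:120348032-120348091 (Actg1), both on the minus strand.
Actb: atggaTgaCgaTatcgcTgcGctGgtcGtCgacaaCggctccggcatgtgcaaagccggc
Actg1: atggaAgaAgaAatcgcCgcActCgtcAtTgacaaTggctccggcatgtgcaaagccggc
The stretch holds 9 differences, and over the whole coding sequence of 1125 bases Actb and Actg1 were 88.6% identical with a longest identical run of 62 bases. The nonmuscle regulatory light chains lie on chr17:70996821-70996880 (Myl12a) and chr17:70977172-70977231 (Myl12b), also on the minus strand.
Myl12a: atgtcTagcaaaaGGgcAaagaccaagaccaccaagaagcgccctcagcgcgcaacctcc
Myl12b: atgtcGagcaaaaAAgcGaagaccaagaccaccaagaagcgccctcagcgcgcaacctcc
This pair differs at 4 of these bases, was 96.5% identical over 516 coding bases, and held an identical run of 102 bases. Myh9 and Myh10 were 74.1% identical with an identical run of 122 bases. A read that lies wholly within an identical run fits both members of a pair, and how such reads were split is not given in the sources used here. The study's reads were longer than the 62-base run of Actb and Actg1, so no full-length read lies within that coding run. They were shorter than the runs of 102 and 122 bases. Ferret sequences were not used here.

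Contractile genes were mostly lower in ferret astrocytes. Of the 54 genes, 36 reached the limit for testing, and of these 21 were called lower (58.3%) and 2 higher (5.56%), with 13 not called. The 21 included unconventional myosins, namely 3 of 6 tested in class I and 4 of 7 tested in other classes. Over all tested genes 30.1% were called lower and 13.1% higher. The median log2 difference of the 36 genes was -1.09, against -0.35 for all genes. After rescaling to the mean sum, 17 of the 36 were called lower (47.2%, against 21.7% of all genes) and 5 higher (13.9%, against 19.1%), and the median was -0.73, against -0.01. Quantile normalization also gave 17 lower and 5 higher, where 20.5% of all genes were lower and 20.3% higher. The 17 genes called lower after either scaling were the same genes and were among the 21.

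Summed over the 54 genes, FPKM was 1999 and 1994 for ferret and 4533 and 4648 for mouse libraries. That was 0.879% and 0.843% of the summed FPKM of the shared symbols in ferret and 1.51% in both mouse libraries. All 36 tested genes had an adjusted p under 0.05 by limma, as did 88.6% of all tested genes. For all 36, both ferret libraries lay on the same side of both mouse libraries, which also held for 94.1% of all tested genes, so a gap between the species was the rule across these libraries. Across the 36 genes the order of the levels was broadly kept between species (Spearman's rho 0.75, a description across genes whose values share the same libraries). The plot of FPKM by library shows how tight the duplicates were.

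**Figure D1:**
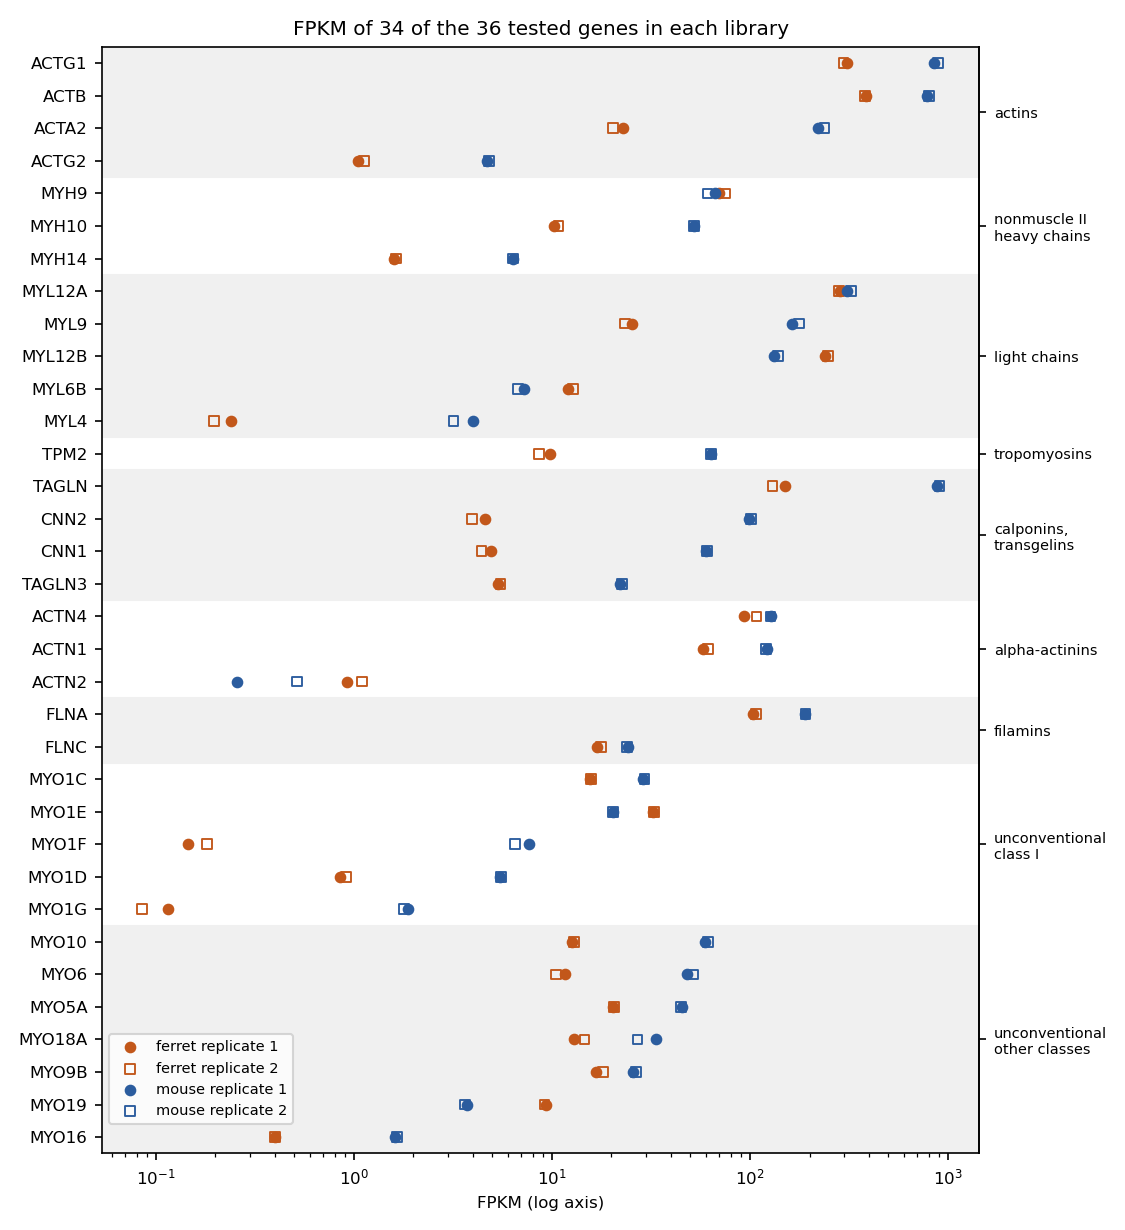
FPKM (log axis) of 34 of the 36 tested genes in each of the 4 libraries, grouped by family, with ferret libraries in orange and mouse libraries in blue. Most genes lie further left in ferret libraries, while Myo1e, Myo19, Myl12b, Myl6b, Actn2 and Myh9 lie further right.

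All 4 actins were called lower in ferret astrocytes with FPKM as deposited (100%, against 30.1% of all genes). After rescaling and after quantile normalization 3 were called lower, against 21.7% and 20.5% of all genes. The cytoplasmic actins, which build the cortex and stress fibres of every cell, had the smallest ratios of mouse to ferret mean FPKM, 2.06 for Actb and 2.87 for Actg1. Actb (chromosome 5, 142903115 to 142906754, minus strand) had 386 and 382 FPKM in ferret and 786 and 799 FPKM in mouse libraries, which gave a log2 difference, ferret minus mouse, of -1.04 (limma, standard error 0.059, adjusted p = 7.52e-08). Actg1 (chromosome 11, 120345690 to 120348542, minus strand) had 310.4 and 297 FPKM against 854 and 889.9 FPKM (log2 difference -1.52 with a standard error of 0.062, limma adjusted p = 6.91e-09). The call of Actb rested on the scaling, since its difference was -0.65 after rescaling and -0.84 after quantile normalization, while Actg1 stayed called at -1.13 and -1.35.

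Acta2, the smooth muscle alpha-actin that also marks contractile fibroblasts, fell furthest among the actins. The mouse gene spans 34241090 to 34255590 of chromosome 19 (minus strand) and has 10 exonic regions. It had 22.9 and 20.4 FPKM in ferret and 221 and 238 FPKM in mouse libraries, so that the mouse mean was 10.6 times the ferret mean (log2 difference -3.35 with a standard error of 0.071, limma adjusted p = 1.16e-10). Actg2, the enteric smooth muscle actin, was low in both species, with 1.05 and 1.13 FPKM in ferret and 4.73 and 4.80 FPKM in mouse libraries (log2 difference -1.47). Both differences kept their call under either scaling.

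The make-up of the actin pool, as shares of summed actin FPKM within a library, does not depend on the scaling between species. Acta2 took 3.18% and 2.91% of the actin sum in ferret and 11.8% and 12.3% in mouse libraries. Actb took 53.6% and 54.6% in ferret and 42.1% and 41.3% in mouse libraries, and Actg1 took 43.1% and 42.3% against 45.8% and 46.1%. The duplicates differed by far less than the species in the shares of Acta2 and Actb. An exact two-sided permutation test of 2 libraries against 2 gave p = 0.333 for each of these shares, the smallest p it can give in this design, so no share here can pass a threshold of 0.05.

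The heavy chains of nonmuscle myosin II did not move together. Myh9, the heavy chain of myosin IIA, was almost level: 69.7 and 75.1 FPKM in ferret and 66.5 and 61.1 FPKM in mouse libraries (log2 difference 0.18 with a standard error of 0.067, limma adjusted p = 0.0271), too small for a call. Myh10, the heavy chain of myosin IIB, was called lower, with 10.3 and 10.8 FPKM in ferret against 52.5 and 52.1 FPKM in mouse libraries (log2 difference -2.20 with a standard error of 0.061, limma adjusted p = 5.36e-10). Myh14, the heavy chain of myosin IIC, was called lower at a low level, with 1.59 and 1.63 FPKM against 6.34 and 6.37 FPKM (log2 difference -1.49). Under both other scalings Myh10 and Myh14 stayed called lower, and Myh9 stayed uncalled at 0.57 and 0.51.

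Within a library the isoform balance differed accordingly. Myh9 took 85.4% and 85.8% of the summed heavy chain FPKM in ferret libraries and 53.0% and 51.1% in mouse libraries. Myh10 took 12.6% and 12.4% in ferret and 41.9% and 43.6% in mouse libraries. Ferret astrocytes thus showed a myosin IIA share higher by 33.5 percentage points (exact permutation p = 0.333, the smallest possible). In the mouse genome Myh9 spans 77760587 to 77842175 of chromosome 15 (minus strand) and Myh10 spans 68691559 to 68816632 of chromosome 11 (plus strand).

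**Figure D2:**
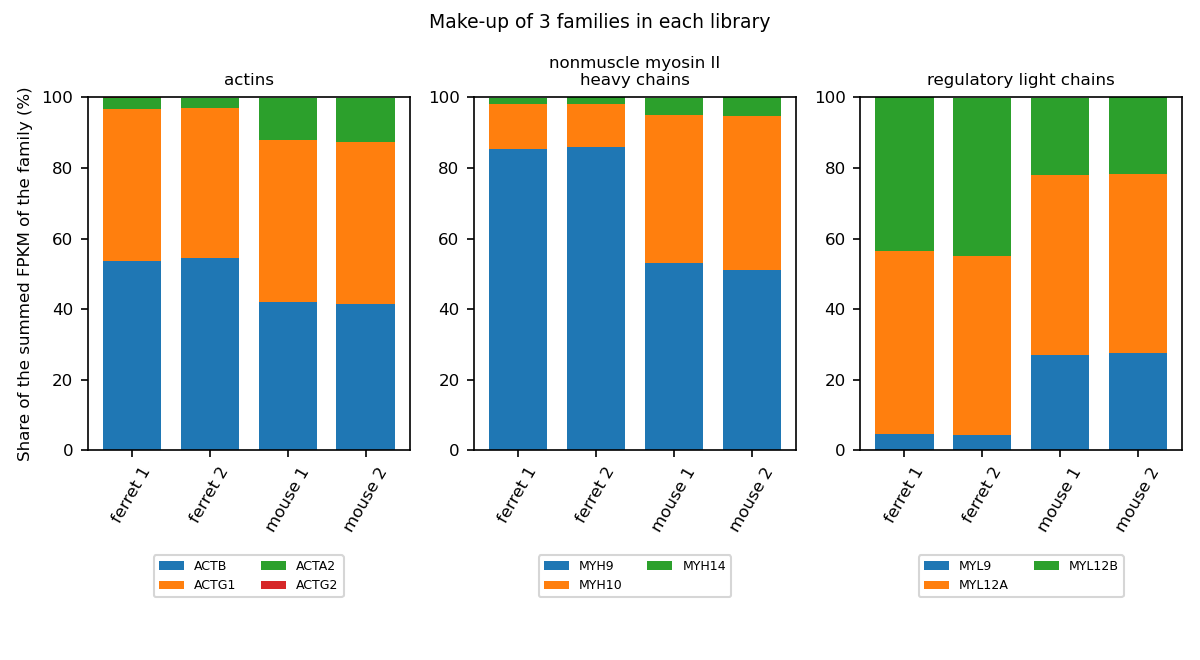
Share of the summed FPKM of a family (%) that each gene takes in each library, for actins, nonmuscle myosin II heavy chains and regulatory light chains. The bars of the duplicates are nearly the same, while Myh9, Myl12b and Actb take larger shares in ferret libraries and Acta2, Myh10 and Myl9 in mouse libraries.

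The regulatory light chains, whose phosphorylation switches myosin II on, differed by isoform. Myl9, the isoform that smooth muscle uses (chromosome 2, 156775420 to 156781658, plus strand), was called lower, with 25.3 and 23.4 FPKM in ferret and 163 and 177 FPKM in mouse libraries (log2 difference -2.75 with a standard error of 0.067, limma adjusted p = 2.38e-10). Myl12a, a nonmuscle isoform, was close in both species, with 285 and 282 FPKM against 309.6 and 324 FPKM, and its log2 difference of -0.16 turned to 0.23 after rescaling and 0.20 after quantile normalization. Myl12b, the other nonmuscle isoform, was higher in ferret libraries at 239 and 248 FPKM against 133 and 139 FPKM, a log2 difference of 0.83 that was not called as deposited but was called at 1.22 after rescaling and 1.21 after quantile normalization.

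The proportions of the 3 regulatory light chains within a library differed between species for Myl9 and Myl12b. Myl9 took 4.6% and 4.22% of their sum in ferret and 26.9% and 27.6% in mouse libraries. Myl12b took 43.5% and 44.8% in ferret against 21.9% and 21.8% in mouse libraries, and Myl12a 51.9% and 50.9% against 51.1% and 50.6%, with overlap between species for Myl12a only. GENCODE M21 lists a second Myl12b gene that spans chromosome 17 from 70974119 to 71002208 and overlaps Myl12a on the same strand, and the values used here hold a single Myl12b.

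Among the other light chains, Myl6b, an essential light chain, had 12.0 and 12.8 FPKM in ferret and 7.22 and 6.76 FPKM in mouse libraries. Its log2 difference of 0.75 was called only after rescaling (1.10) and quantile normalization (1.15). Myl4, an essential light chain of embryonic and atrial muscle, was called lower at a low level, with 0.240 and 0.197 FPKM in ferret and 4.02 and 3.19 FPKM in mouse libraries (log2 difference -1.91 with a standard error of 0.097, limma adjusted p = 3.50e-08). The main nonmuscle essential light chain Myl6 reached 924 and 969 FPKM in mouse cells but enters no comparison, because no ferret value was used here.

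Calponins and transgelins had the lowest median log2 difference of the families with more than 1 tested gene, -3.05. Both calponins and both transgelins with values in the 2 species were called lower in ferret astrocytes under all 3 scalings. Of all genes, 30.1% were called lower as deposited, 21.7% after rescaling and 20.5% after quantile normalization. Cnn2, a calponin of nonmuscle cells that binds actin filaments (chromosome 10, 79988584 to 79996062, plus strand), had 4.6 and 3.95 FPKM in ferret and 98.8 and 101 FPKM in mouse libraries. Its mouse mean was 23.3 times the ferret mean, and its log2 difference of -4.26 (SE 0.073, limma adjusted p = 3.68e-11) was the largest in size among the 36 genes on this scale. By the ratio of mean FPKM the low gene Myo1f was further apart, at 43.1.

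Cnn1, the smooth muscle calponin, had 4.93 and 4.41 FPKM in ferret against 60.1 and 60.6 FPKM in mouse libraries (log2 difference -3.44, adjusted p = 8.14e-11 by limma). Tagln, an early smooth muscle actin-binding protein also named SM22, was the most abundant of the 54 shared genes in the mouse libraries, at 879 and 906 FPKM. It stood at 151 and 130.1 FPKM in ferret libraries (log2 difference -2.66, limma adjusted p = 6.88e-10). Tagln3, a transgelin of the nervous system, had 5.36 and 5.51 FPKM against 22.1 and 22.7 FPKM (log2 difference -1.86). The libraries of the species did not overlap in any of these genes, nor in 94.1% of all tested genes. Mouse Tagln overlaps Pcsk7 on the opposite strand, and whether the deposited values were computed with strand is not given in the sources used here.

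Tpm2, which encodes beta-tropomyosin, was the only tropomyosin with values in both species here. It had 9.82 and 8.65 FPKM in ferret and 63.8 and 63.6 FPKM in mouse libraries (log2 difference -2.66 with a standard error of 0.070, limma adjusted p = 4.16e-10). The other tropomyosins are therefore a one-sided description: in the mouse libraries Tpm1 had 288 and 283 FPKM, Tpm4 215 and 215 FPKM and Tpm3 151 and 151 FPKM. Cnn3, at 739 and 770 FPKM, and Tagln2, at 88.4 and 94.6 FPKM, were likewise used from mouse libraries alone. In all, 16 symbols of the rule had a mouse value only and 3 a ferret value only among the values used here, and these 19 genes entered no comparison.

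The crosslinkers changed less. Filamins cross actin filaments into networks and link them to membranes. Flna, the filamin of most cell types, had 104 and 107 FPKM in ferret and 189.7 and 191 FPKM in mouse libraries (log2 difference -0.85, adjusted p = 2.46e-07 by limma), and its difference was -0.46 after rescaling. Flnc, the filamin known from muscle, had 17.0 and 17.7 FPKM against 24.3 and 24.0 FPKM, with a log2 difference of -0.45 as deposited and -0.08 after rescaling. Neither gene reached the size of a call under any of the 3 scalings.

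Alpha-actinins bundle actin filaments and anchor them at adhesions. Actn1, a nonmuscle alpha-actinin of stress fibres, had 57.7 and 61.7 FPKM in ferret and 122 and 121 FPKM in mouse libraries. Its log2 difference of -1.01 (limma, adjusted p = 1.00e-07) barely passed the call. It was no longer called after rescaling (-0.62), after quantile normalization (-0.69) or without ferret replicate 1 (-0.96). Actn4, the other nonmuscle alpha-actinin, had 93.8 and 108 FPKM against 128 and 127 FPKM, and its log2 difference of -0.34 vanished after rescaling (0.05, adjusted p = 0.413) and quantile normalization (0.00). Actn2, a sarcomeric alpha-actinin, stood near the limit of testing, at 0.921 and 1.10 FPKM in ferret and 0.258 and 0.517 FPKM in mouse libraries. Its log2 difference was 0.54, and 1.23 with a pseudocount of 0.1.

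Class I myosins are single-headed motors that link membranes to actin. Myo1e, a class I myosin of endocytosis and cell adhesion, was higher in ferret libraries at 32.6 and 32.8 FPKM against 20.3 FPKM in both mouse libraries. Its log2 difference of 0.66 was not called as deposited and was called at 1.04 after rescaling and 1.06 after quantile normalization. Myo1c, a widely expressed class I myosin of membrane traffic, had 15.6 and 15.8 FPKM against 29.0 and 29.4 FPKM (log2 difference -0.85), which was not called under any scaling. Myo1d was called lower, with 0.857 and 0.911 FPKM in ferret and 5.45 and 5.54 FPKM in mouse libraries (log2 difference -1.79, adjusted p = 8.70e-09 by limma).

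Myo1f and Myo1g, class I myosins known from white blood cells, were near 0 in ferret libraries. Myo1f had 0.146 and 0.182 FPKM in ferret and 7.64 and 6.51 FPKM in mouse libraries (log2 difference -2.79, adjusted p = 1.35e-09 by limma), and Myo1g had 0.115 and 0.0853 FPKM against 1.87 and 1.80 FPKM (log2 difference -1.37). Beside them, all 12 microglial markers were called lower in ferret astrocytes (100%, against 30.1% of all genes). The direction of Tyrobp, C1qb and Laptm5 was known beforehand, because the study ranks these 3 among its top mouse-specific genes. The 12 markers summed to 8.51 and 6.63 FPKM in ferret and 528 and 519 FPKM in mouse libraries. Among them, Cx3cr1 is listed at 0 in both ferret libraries. By immunostaining of cultures kept in serum, the study counted a small share of microglia in both species, larger in mouse. The part of microglial RNA in the values of Myo1f and Myo1g was not tested. In bulk libraries fewer cells of a type and less RNA per cell cannot be told apart.

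Of the 7 other unconventional myosins tested, 4 were called lower (57.1%, against 30.1% of all genes) and 1 higher (14.3%, against 13.1%). Myo10, the motor of filopodia tips, had 12.6 and 12.9 FPKM in ferret and 59.5 and 61.3 FPKM in mouse libraries (log2 difference -2.16, adjusted p = 5.16e-10 by limma). Myo6, which moves toward the minus end of actin and serves endocytosis, had 11.7 and 10.5 FPKM against 48.0 and 51.8 FPKM (log2 difference -2.07, adjusted p = 2.42e-09). These genes kept their calls under every alternative tried.

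Myo5a, a cargo carrier of vesicles and organelles, had 20.4 and 20.6 FPKM in ferret and 45.4 and 45.0 FPKM in mouse libraries, and Myo18a, a myosin of Golgi membranes and actin bundles, had 12.9 and 14.6 FPKM against 33.7 and 27.1 FPKM. Their log2 differences of -1.10 and -1.08 fell short of a call after rescaling (-0.72 and -0.71). Myo18a also lost its call without mouse replicate 1 (-0.93) or ferret replicate 1 (-1.0). Myo19, a motor of mitochondria, was one of the 2 genes called higher, with 9.30 and 9.19 FPKM in ferret against 3.75 and 3.65 FPKM in mouse libraries (log2 difference 1.12 with a standard error of 0.071, limma adjusted p = 1.69e-07), and it stayed called at 1.46 after rescaling and 1.55 after quantile normalization. Mouse Myo19 overlaps Pigw and Znhit3 on the opposite strand. Tested members that likewise have a gene on the opposite strand are Tagln, Actn1, Actn4, Myh14, Myl4, Myl12a, Myl12b, Myo5a, Myo6, Myo9b and Myo18a.

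Myo9b was not called (log2 difference -0.56), nor was Myo16 at 0.401 FPKM in both ferret libraries and 1.61 and 1.65 FPKM in mouse libraries (-0.91). Myo16 reached -1.79 with a pseudocount of 0.1, which gives low genes more weight. The plot of log2 differences shows these shifts for each gene.

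**Figure D3:**
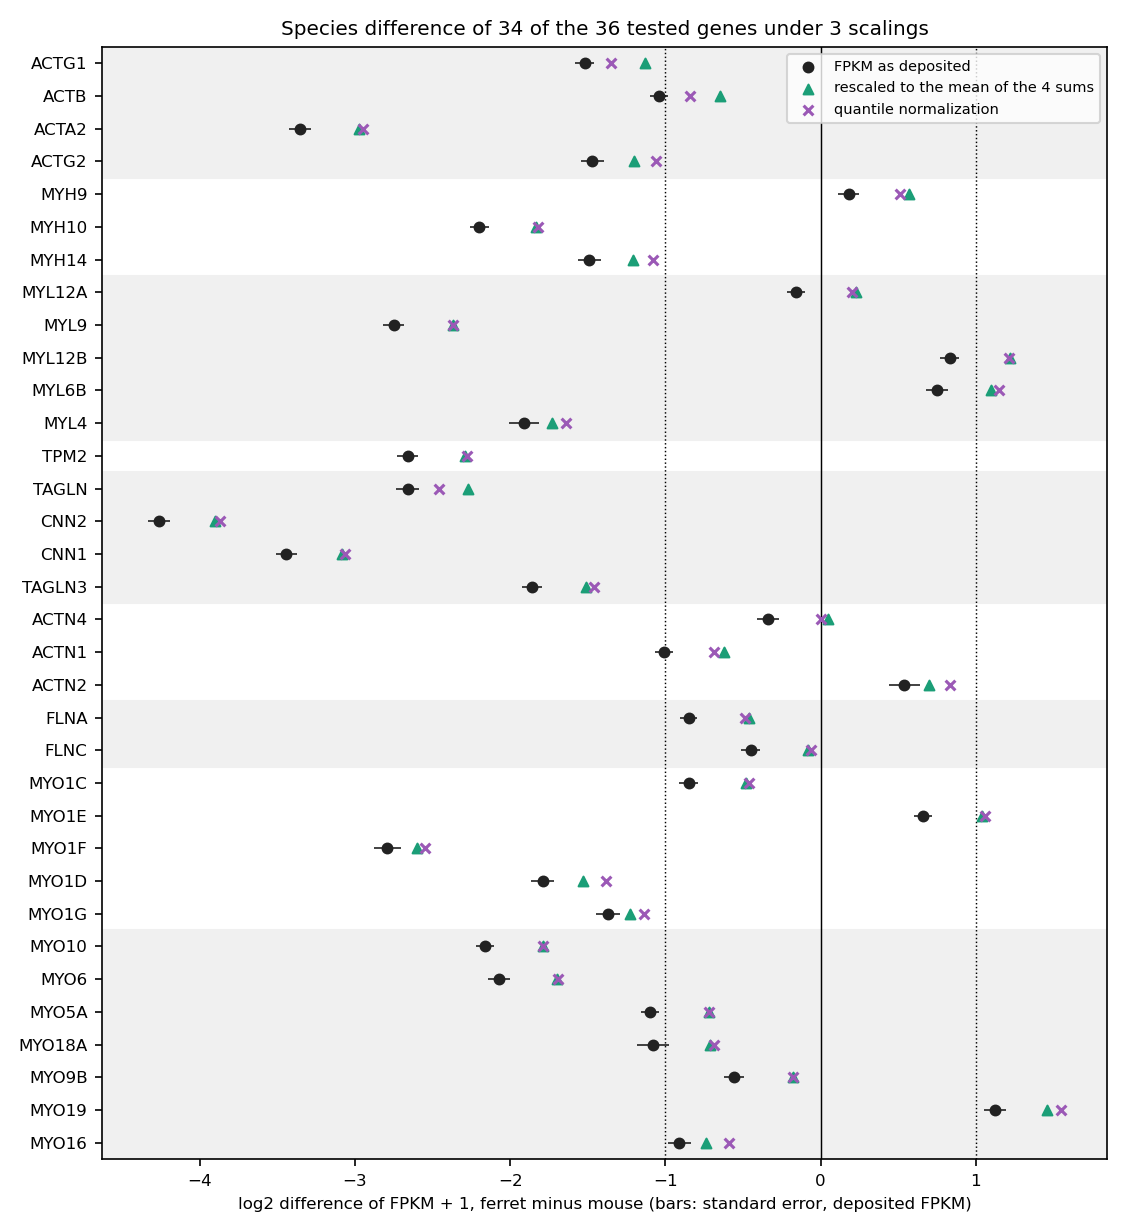
Log2 difference of FPKM + 1, ferret minus mouse, for 34 of the 36 tested genes with FPKM as deposited (circles, with standard errors), after rescaling to the mean of the 4 sums (triangles) and after quantile normalization (crosses). Dotted lines mark the size required for a call, and both rescalings move nearly all genes to the right, past a line for Actb, Actn1, Myo5a, Myo18a, Myl12b, Myl6b and Myo1e.

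The remaining 18 genes stayed under an FPKM of 1 in every library, with 0.823 FPKM for Myo1h in a mouse library as the highest value. They include all 5 muscle myosin heavy chains with values in both species. Myh11, the smooth muscle heavy chain, had 0.181 and 0.209 FPKM in ferret and 0.124 and 0.0812 FPKM in mouse libraries. The smooth muscle heavy chain was thus near 0 in the mouse libraries, where Acta2, Tagln, Cnn1 and Myl9 ranged from 60.1 to 906 FPKM. Of the 18, 7 are listed at 0 in both ferret libraries, among them Myh1 and Myl2 of striated muscle, and Myl7 is listed at 0 in all 4. An exact 0 in FPKM can be a failed estimate. The striated muscle regulators Myod1 and Myog are listed at 0 in all 4 libraries as well.

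Cell type markers were set beside the smooth muscle type genes. Of 9 tested mural and smooth muscle markers, 4 were called lower (44.4%, against 30.1% of all genes) and 2 higher in ferret astrocytes (22.2%, against 13.1%). Summed over the 12 markers with values in both species, FPKM was 31.2 and 30.4 in ferret and 80.9 and 78.8 in mouse libraries. Pdgfrb, a receptor of pericytes and fibroblasts, had 4.57 and 4.38 FPKM in ferret against 24.5 and 22.7 FPKM in mouse libraries. Synpo2 was the lowest by log2 difference at -2.84 and Kcnj8 the highest at 3.62. Desmin (Des) was under 1 FPKM in every library, at 0.0428 and 0.0565 FPKM in ferret and 0.281 and 0.282 FPKM in mouse libraries, and Rgs5 is listed at 0 in both ferret libraries.

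Fibroblast markers differed more. Of 9 tested, 8 were called lower (88.9%, against 30.1% of all genes) and 0 higher (against 13.1%). After either scaling 8 were called lower and 1 higher, which was Pdgfra at 1.04 after rescaling and 1.18 after quantile normalization. Of all genes, 21.7% were lower and 19.1% higher after rescaling, and 20.5% and 20.3% after quantile normalization. Summed over the 10 markers with values in both species, FPKM was 125 and 111 in ferret and 1571 and 1548 in mouse libraries. Serpinf1 and Pcolce of this list are among the study's top mouse-specific genes from these same data, so their direction was known beforehand. Col1a1, a fibrillar collagen chain, had 32.2 and 28.8 FPKM in ferret against 164 and 156 FPKM in mouse libraries, Serpinf1 had the lowest log2 difference at -9.18, and Pdgfra, at 0.77, the highest. The part of mural or fibroblast RNA in the values of Acta2, Tagln, Cnn1, Myl9 and Tpm2 was not tested.

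Contraction control genes were called lower about as often as all genes. Of 27 genes in a list of contraction signalling, myosin phosphatase and serum response genes, 26 were tested, 8 were called lower (30.8%, against 30.1% of all genes) and 2 higher (7.69%, against 13.1%), and their median log2 difference was -0.49, against -0.35 for all genes. After rescaling 4 were called lower and 3 higher (against 21.7% and 19.1% of all genes), and the median was -0.13.

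Rhoa, the small GTPase that starts the pathway, had 309 and 341 FPKM in ferret and 233 and 235 FPKM in mouse libraries (log2 difference 0.47, not called). Its kinases differed from each other: Rock1 had 12.0 and 11.4 FPKM against 15.8 and 15.7 FPKM (log2 difference -0.40, not called), whereas Rock2 had 16.5 and 17.0 FPKM against 56.8 and 54.3 FPKM and was called lower (log2 difference -1.67, adjusted p = 3.06e-09 by limma). Mylk, the myosin light chain kinase, was low in both species, at 0.274 and 0.315 FPKM in ferret and 1.39 and 1.66 FPKM in mouse libraries. Its log2 difference of -0.96 was not called, but with a pseudocount of 0.1 it was called lower at -2.04.

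Of the myosin phosphatase subunits that target the enzyme to myosin, Ppp1r12a had 29.4 and 29.6 FPKM in ferret and 26.6 and 25.3 FPKM in mouse libraries and was not called (log2 difference 0.18). Ppp1r12b had 3.10 and 2.73 FPKM in ferret and 24.2 and 24.8 FPKM in mouse libraries and Ppp1r12c had 4.28 and 4.82 FPKM against 38.0 and 33.3 FPKM. The last 2 were called lower, at log2 differences of -2.70 and -2.72. Cald1, or caldesmon, which binds actin and holds back the myosin ATPase, had 33.1 and 29.1 FPKM in ferret and 173 and 168 FPKM in mouse libraries (log2 difference -2.42, adjusted p = 7.13e-10 by limma). The 2 genes called higher were Cit, a kinase of the cleavage furrow, at 6.97 and 7.73 FPKM against 1.10 FPKM in both mouse libraries (log2 difference 1.99), and Ppp1r14a, a phosphatase inhibitor, at 2.36 and 2.21 FPKM against 0.145 and 0.182 FPKM (1.5). The serum response factor Srf and its actin-sensing coactivators Mrtfa and Mrtfb were not called, with log2 differences of -0.41, 0.36 and -0.18.

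Genes of actin assembly sat near the median of all genes. Of 26 listed, 18 had values in both species and were tested. By limma 4 were called lower (22.2%, against 30.1% of all genes) and 0 higher (against 13.1%). At an unadjusted limma p under 0.05 whatever the size, 6 were higher and 10 lower (32.5% and 56.5% of all genes). The median log2 difference was -0.22. The called genes with the largest differences were Arpc3 of the Arp2/3 complex (32.9 and 34.3 FPKM in ferret, 155 FPKM in both mouse libraries, log2 difference -2.17), the formin Diaph3 (2.88 and 2.44 FPKM against 9.44 and 9.94 FPKM, -1.55) and the filament-severing protein gelsolin, Gsn (88.0 and 93.7 FPKM against 242 and 244 FPKM, -1.41). After rescaling 3 were called lower and 1 higher, against 21.7% and 19.1% of all genes. After quantile normalization the counts were 4 and 1, against 20.5% and 20.3% of all genes.

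Focal adhesion genes, which anchor stress fibres, had a median log2 difference of -0.67 over 17 tested genes. By limma 8 were called lower (47.1%, against 30.1% of all genes) and 0 higher (against 13.1%). At an unadjusted limma p under 0.05 whatever the size, 3 were higher and 12 lower (32.5% and 56.5% of all genes). After rescaling 4 were called lower and 1 higher, against 21.7% and 19.1% of all genes. The largest differences among the called genes were those of Tns1, or tensin 1, at 4.47 and 4.28 FPKM against 22.3 and 25.1 FPKM (log2 difference -2.20), of the adhesion scaffold Ilk at 28.3 and 29.6 FPKM against 132 and 140.2 FPKM (-2.20), and of Vasp, an actin polymerase partner, at 5.31 and 5.55 FPKM against 25.2 and 23.8 FPKM (-1.99).

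**Figure D4:**
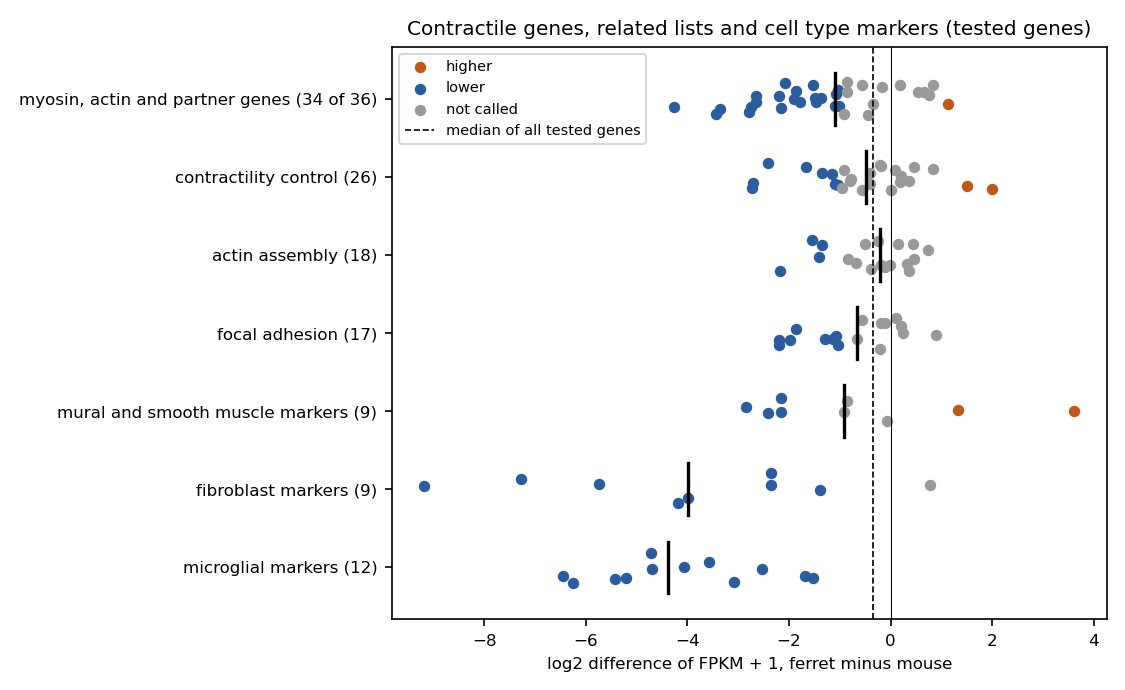
Log2 difference of FPKM + 1, ferret minus mouse, for 34 of the 36 tested myosin, actin and partner genes and each tested gene of 3 related lists and of 3 marker lists, coloured by call, with the number tested in parentheses. Thick bars are list medians, for the contractile genes over all 36, and the dashed line is the median of all tested genes, -0.35. The contractile genes (-1.09) lie to the left of the related lists (-0.49, -0.22 and -0.67) and to the right of the fibroblast and microglial markers. They lie close to the mural and smooth muscle markers (-0.92).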

How the data were processed

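RNA-seq was measured in 2 ferret and 2 mouse astrocyte libraries. Per the labels and the methods, the authors mapped polyA-selected, stranded reads with STAR 2.7.0f to the Ensembl genome of the species concerned (mouse GRCm38), and the FPKM they deposited come from Cufflinks 2.2.1. FPKM carry no counts, and they depend on how complete the gene models of a species are. Symbols were matched without regard to case and the highest mean was kept where a symbol had several values. The species were compared with limma 3.58.1 (R 4.3.3, moderated variances with an intensity trend) on log2(FPKM + 1), fitted on the 10204 genes whose mean reached 1 FPKM in either species. Calls needed a Benjamini-Hochberg adjusted p under 0.05 and a log2 difference above 1 in size. Shares within families were computed per library. Members, gene lists and alternatives were chosen with earlier results of these data known, and the related lists and markers were written from general knowledge. Some of the fibroblast and microglial markers also stand in the study's own list of mouse-specific genes from these data. Members past the call or with a mean of at least 50 FPKM are given with their library values, as were further members singled out for their role, and Myl6, Cnn3, Ppp1r12a and the tropomyosins after their values were seen. Alternatives were a pseudocount of 0.1, no filter, a filter at 5 FPKM, 2 scalings, summed values per symbol, the replicate number as a block and each library left out. Mouse positions and coding sequences are those of GENCODE M21 on GRCm38, an annotation release other than the authors'. Promoter and protein sequences were not used here. The values of 2 tested members are not reported here, though they enter the counts, sums and medians.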

Additional observations from a re-analysis of the deposited data

How the results depend on the processing

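The calls depended on the scaling between species, and the cause was not tested. Members called higher rose from 2 to 5 and the members' median log2 difference moved from -1.09 to -0.73 after rescaling to the mean of the 4 sums, and to 5 and -0.78 after quantile normalization, which also raised all genes called higher from 1336 to 2076. Under both scalings contractility control genes called lower fell from 8 to 4, focal adhesion genes called lower from 8 to 4, and 1 actin assembly and 1 focal adhesion gene became higher. Actn4 reversed to 0.05 and 0.00 and Myl12a to 0.23 and 0.20 under these scalings. The median was -1.33 with a pseudocount of 0.1, where 1 focal adhesion gene was called higher, and -0.60 without a filter, where 54 genes enter. With a filter at 5 FPKM 1 contractility control gene was called higher. Leaving out each library gave 19 to 22 members called lower, 2 called higher, and a median from -1.17 to -1.07. No call of a member changed with the replicate number as a block. The numbers come from the titles alone. Across genes the deviations of same-numbered libraries correlated at 0.00995, so no shared deviation was seen. That value cannot exclude that same-numbered libraries were handled together. The block gave a median of -1.09, as without it. Summed values per symbol changed no member. Values of low genes have no counting interval, since FPKM carry no counts.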
